A study of Mus musculus with 4 samples.

Results

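The mouse mitochondrial genome carries 37 genes whose symbols start with mt-, and all 37 were present among the 54446 features with a mouse Ensembl ID. They were taken by that symbol alone, without use of any measured value, and comprise 13 genes for proteins of the respiratory chain, 2 genes for ribosomal RNAs and 22 genes for transfer RNAs. RNA was sequenced from epithelial cells of the tongue of C57BL/6 mice, grown in RPMI-1640 with fetal bovine serum. Of the 4 libraries, 2 carry the label of a systemic Otub2 knockout (numbers 3 and 4) and 2 that of wild type (numbers 1 and 2, titled controls). Otub2 is a deubiquitinase of the OTU family, and the study asked how its loss alters gene expression. Age, passage, the number of animals behind each library and the knockout allele are not stated, so the p-values below measure the spread between these libraries, which may be technical.

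As background, mitochondrial DNA is transcribed from both strands into long precursors that span many genes. Most mRNAs are flanked by tRNAs, and excision of the tRNAs releases the mRNAs and rRNAs, after which the RNAs differ in abundance through processing and stability. The proteins encoded there are core subunits of complexes I, III, IV and V, which are assembled with nuclear-encoded partners, while complex II is wholly nuclear-encoded. Tissues with a high energy demand, such as heart muscle, are especially rich in these transcripts.

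Gene counts summed to 22719550 in the library labelled Otub2 knockout 3 and 18911259 in number 4, against 12185345 in wild type 1 and 11548186 in wild type 2. Otub2 itself had 18.99 and 23.95 CPM in numbers 3 and 4, against 27.5 and 26.9 CPM in wild type, where CPM is the count relative to the TMM-scaled library size (log2 fold change -0.34, SE 0.30, adjusted p = 0.485, edgeR quasi-likelihood test). The transcript was present in all 4 libraries, and the count columns of the 2 labelled Otub2 knockout are headed OE with the numbers 3 and 4, so they are called by their labels throughout. The pair labelled Otub2 knockout did not resemble each other. The 16 cardiomyocyte markers held 1.46% of gene counts in the library labelled Otub2 knockout 3 and 0.00762% in number 4, against 0.00996% and 0.0122% in wild type, and the 14 salivary secretory markers held 25.4% and 0.00350%, against 0.00440% and 0.00531%. Of that 25.4%, Mucl2 alone took 24.04% and Prol1 1.30% of gene counts, so the value rests on these 2 genes. All 16 cardiomyocyte markers had counts in every library, as did all 10 oral keratinocyte markers, which held 1.96% and 4.55% of gene counts in the libraries labelled Otub2 knockout and 6.82% and 6.35% in wild type. Of the salivary markers, 4 were at 0 in the library labelled Otub2 knockout 3 and 2 in each of the others. Every result below that rests on a library labelled Otub2 knockout is given for each of the 2 separately. In such bulk samples fewer cells of a type and less RNA per cell cannot be told apart.

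Mitochondrial transcripts were far more abundant in the library labelled Otub2 knockout 3 than in the other 3 libraries, and were lowest in number 4. The 37 genes together held 4.43% and 0.625% of gene counts in the libraries labelled Otub2 knockout 3 and 4, against 0.813% and 1.10% in wild type. The mRNAs alone held 3.78% and 0.414%, against 0.543% and 0.839%, and the rRNAs 0.640% and 0.211%, against 0.269% and 0.265%. The wild-type libraries thus lay between the 2 labelled Otub2 knockout in every class. The difference of group means was 1.41 percentage points for the mRNAs and could not be told from the spread between libraries (exact permutation test over samples, two-sided, p = 1; the smallest p that 2 against 2 libraries allow is 0.333). The high share in the library labelled Otub2 knockout 3 came with the cardiomyocyte and salivary markers given above, and their part in it was not tested.

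Among the mRNAs, mt-Co1, the catalytic core of cytochrome c oxidase (complex IV), was the most abundant per length in every library, at 11259 and 1763 deposited FPKM in the libraries labelled Otub2 knockout 3 and 4 and at 2102 and 3106 in wild type. mt-Cytb, the cytochrome b of complex III, had 5262 and 426 FPKM, against 563 and 947. mt-Nd1, a subunit of the membrane arm of complex I, had 3893 and 467 FPKM, against 917 and 1521. mt-Cytb thus stood above mt-Nd1 in the library labelled Otub2 knockout 3 and below it in the other 3. At the other end were the 6 genes from mt-Co2 to mt-Nd4l (mt-Co2, mt-Atp8, mt-Atp6, mt-Co3, mt-Nd3 and mt-Nd4l). By the counts given to the mitochondrial genes, they were the 6 lowest mRNAs per length in each of the 4 libraries. The highest of these 6 had 200 and 30.3 FPKM in the libraries labelled Otub2 knockout, against 45.5 and 48.8 in wild type, while the lowest of the other 7 mRNAs had 1655 and 72.0, against 69.6 and 89.0. In wild type this order depended on the split of reads with the chromosome 1 copies described further on. With the copies added, as counts per kb relative to gene counts, a scale near FPKM, wild type had 219 and 297 for mt-Co2. There mt-Co3 had 180 and 254 and mt-Atp6 95.4 and 150, all above the lowest of the other 7. mt-Nd3 and mt-Nd4l stayed below it. In the libraries labelled Otub2 knockout, mt-Co2 was the highest with copies at 343 and 63.9, still below 1655 and 72.0.

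**Figure D1:**
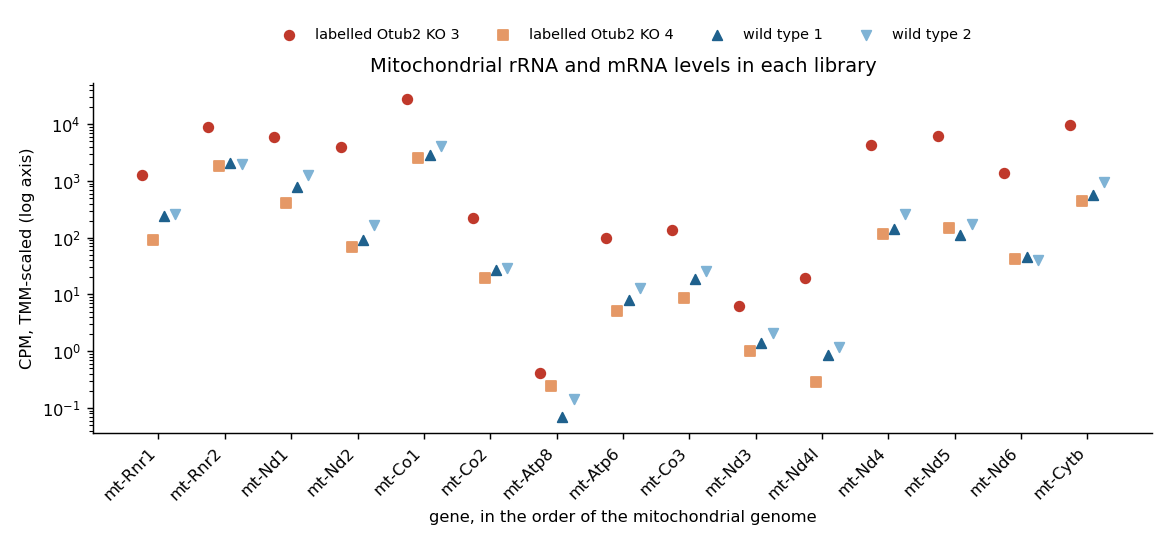
CPM after TMM scaling (log axis) of the 2 rRNAs and 13 mRNAs, in the order of the mitochondrial genome, with 1 point for each library. The library labelled Otub2 knockout 3 has the highest point for all 15 genes, and number 4 lies below both wild-type libraries for 12 of them.

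Complex I takes 7 of the 13 mRNAs, which are subunits of its membrane arm. mt-Nd5 had 6248 CPM in the library labelled Otub2 knockout 3 and 146 CPM in number 4, against 112 and 171 CPM in wild type. mt-Nd4 had 4357 and 117 CPM, against 140 and 259, and mt-Nd2 had 3904 and 69.0 CPM, against 91.0 and 171. mt-Nd6, whose template is the opposite strand to that of the other 12, had 1381 and 41.3 CPM, against 46.1 and 40.2. For mt-Nd5 and mt-Nd6 the library labelled Otub2 knockout 4 lay between the wild-type libraries, whereas for mt-Nd2 and mt-Nd4 it lay below both. The remaining complex I mRNAs, mt-Nd1, mt-Nd3 and mt-Nd4l, were likewise highest in the library labelled Otub2 knockout 3 and lowest in number 4, with mt-Nd4l at 280 and 6 counts, against 12 and 16. For mt-Nd3 and mt-Nd4l these levels depend on how reads were split with copies on chromosome 1, as described further on. Gene and copy together had 490 and 10 counts for mt-Nd4l, against 37 and 72. For mt-Nd3 they had 583 and 25, against 93 and 120.

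For complex III, mt-Cytb had 9677 CPM in the library labelled Otub2 knockout 3 and 450 CPM in number 4, against 565 and 943 CPM in wild type. For complex IV, mt-Co1 had 27959 and 2516 CPM, against 2851 and 4176, mt-Co2, which holds the site that takes electrons from cytochrome c, had 220 and 19.1 CPM, against 27.3 and 29.1, and mt-Co3, the third core subunit, had 135 and 8.76 CPM, against 18.8 and 25.7. For complex V, the ATP synthase, mt-Atp6 of the proton channel had 98.6 and 5.18 CPM, against 7.91 and 12.8. By the counts given to the mitochondrial genes, all 5 thus had the library labelled Otub2 knockout 3 above both wild-type libraries and number 4 below both. For mt-Co2, mt-Co3 and mt-Atp6 these levels depend on how reads were split with the chromosome 1 copies, as described further on. With the CPM of the copies added the order held, but the excess in number 3 was smaller. The copy of mt-Co3, for instance, had 95.9 and 5.86 CPM, against 102 and 143. Without TMM scaling, as counts per kb relative to gene counts, mt-Co3 with its copy had 186 and 20.4, against 180 and 254. Number 3 then lay between the wild-type libraries. On that scale mt-Co2 with its copy had 343 and 63.9, against 219 and 297, and mt-Atp6 189 and 18.9, against 95.4 and 150. mt-Atp8, the other subunit of complex V, was counted only 6 and 5 times in the libraries labelled Otub2 knockout and 1 and 2 times in wild type, and was too low to be tested. The 2 genes overlap by 43 bases, where a read cannot be given to one of them by its sequence, as the end of mt-Atp8 (chrM:7917-7969, plus strand, GRCm38) and the start of mt-Atp6 (chrM:7927-7979, plus strand) show, the shared bases in capitals.
mt-Atp8: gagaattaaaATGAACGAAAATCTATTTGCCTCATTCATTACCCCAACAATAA
mt-Atp6: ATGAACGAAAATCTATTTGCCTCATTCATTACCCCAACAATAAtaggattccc

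No mitochondrial gene passed the test over all 4 libraries. Of the 37 genes, 18 had enough counts to be tested (12 mRNAs, 2 rRNAs and 4 tRNAs) and 0 were called at an adjusted p of 0.05 by the edgeR quasi-likelihood test, as were 0 of all 21916 genes tested, 0.0% in either direction. At an unadjusted p under 0.05, 2 of the 18 were higher and 0 lower, against 9.42% and 15.2% of all genes. These were mt-Nd5 (log2 fold change 4.50, SE 1.67, 95% interval 0.25 to 8.76, adjusted p = 0.193) and mt-Nd6 (4.04, SE 1.53, 95% interval 0.15 to 7.93, adjusted p = 0.197). The median log2 fold change was 2.53 over the 12 mRNAs tested, 1.42 over the 2 rRNAs and 3.43 over the 4 tRNAs, against 0.09 over all genes tested. These medians were 1.21, 0.70 and 1.14 with limma voom, and 1.72, 0.67 and 2.59 with scaling by library size only. With DESeq2, which called 3.43% of the genes higher and 1.2% lower, mt-Nd6 was the only mitochondrial gene called (log2 fold change 4.06, SE 1.15, adjusted p = 0.0157).

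The fold changes over both libraries average 2 unlike libraries. In the library labelled Otub2 knockout 3, all 18 tested genes lay above both wild-type libraries and 0 below both, against 42.1% and 45.6% of all genes tested. In number 4, 16 of the 18 lay below both and 0 above both, against 47.1% and 41.8% of all genes tested, and mt-Nd5 and mt-Nd6 lay between them. No tested mitochondrial gene had both libraries labelled Otub2 knockout on the same side of wild type, whereas 26.9% of all genes tested had both above and 33.1% both below. Taken alone against wild type, the library labelled Otub2 knockout 3 had 25 of 25 tested mitochondrial genes called higher and 0 lower (22.4% and 12.7% of all genes), and number 4 had 9 of 18 called lower and 0 higher (22% and 18.8% of all genes). The fit of number 3 tested 11 tRNAs instead of 4. The further tRNAs passed the count filter through number 3 alone, so their calls as higher were all but fixed by the filter. Both fits assume that the lone library varies like the others. In number 4 the genes called lower include mt-Rnr1 (log2 fold change -1.44, SE 0.28, adjusted p = 4.91e-06), mt-Nd1 (-1.28, SE 0.28, adjusted p = 3.66e-05) and mt-Co3 (-1.32, SE 0.32, adjusted p = 2.64e-04), while mt-Rnr2 (-0.10, SE 0.25, adjusted p = 0.757) and mt-Nd5 (0.07, SE 0.26, adjusted p = 0.832) were not called.

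**Figure D2:**
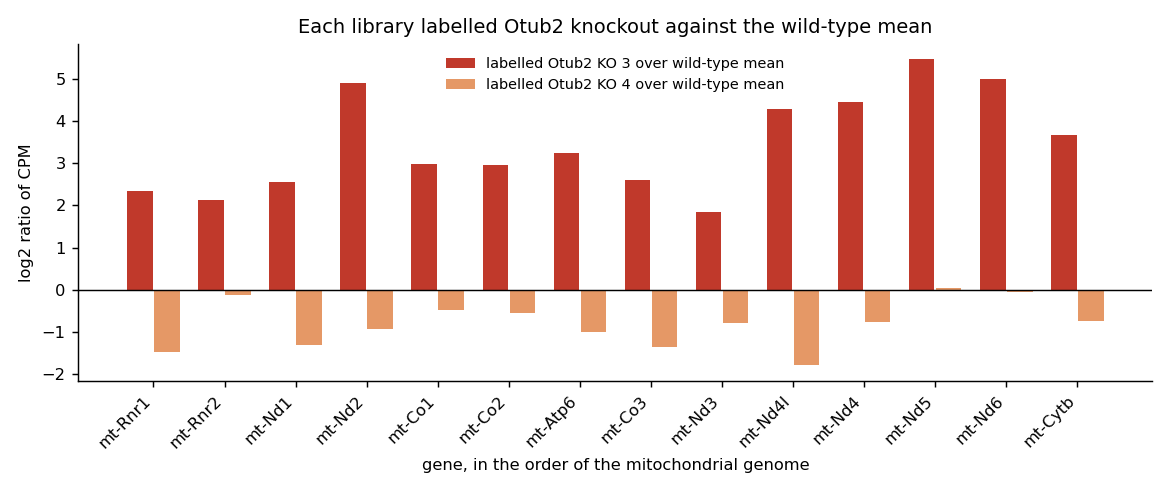
Log2 ratio of the CPM of each library labelled Otub2 knockout to the mean of the 2 wild-type libraries, for the 2 rRNAs and the 12 mRNAs tested, in genome order. Bars of number 3 reach from 1.84 (mt-Nd3) to 5.47 (mt-Nd5), and those of number 4 from -1.79 (mt-Nd4l) to 0.05 (mt-Nd5).

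The excess in the library labelled Otub2 knockout 3 was uneven along the genome. On the log2 scale its CPM exceeded the wild-type mean by 4.90 for mt-Nd2, 4.45 for mt-Nd4, 5.47 for mt-Nd5 and 4.999 for mt-Nd6, but by 2.56 for mt-Nd1, 2.99 for mt-Co1, 2.34 for the rRNA mt-Rnr1 and 2.14 for mt-Rnr2. The mRNAs from mt-Nd4 to mt-Cytb accordingly made up 36.1% of mitochondrial mRNA counts there and 19.9% in number 4, against 18.6% and 19.9% in wild type. This stretch was chosen after its values were seen. In number 4 that share equalled that of wild type 2 to the digits given.

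The makeup of the mitochondrial mRNAs does not depend on scaling, but for the genes copied on chromosome 1 it depends on how reads were split with the copies, as described further on. For 6 of the 13 mRNAs both libraries labelled Otub2 knockout lay on the same side of wild type. On the unlike scale of CPM, 26.9% of all genes tested had both above and 33.1% both below, so such a number is not unusual. mt-Nd1 made up 9.98% and 10.9% of the mRNA counts in the libraries labelled Otub2 knockout 3 and 4, against 16.6% and 17.9% in wild type. mt-Co3 made up 0.225% and 0.231%, against 0.406% and 0.362%, mt-Atp6 0.164% and 0.137%, against 0.171% and 0.181%, and mt-Nd3 0.0105% and 0.0268%, against 0.0302% and 0.0299%. Both libraries labelled Otub2 knockout were below both wild-type libraries for these 4 genes. They were above both for 2 genes, mt-Nd5 at 10.4% and 3.85%, against 2.41% and 2.41%, and mt-Nd6 at 2.30% and 1.09%, against 0.996% and 0.567%. The largest share, that of mt-Co1, was 46.6% and 66.4%, against 61.6% and 58.8%, and put the 2 libraries labelled Otub2 knockout on opposite sides of wild type. These shares are a description. An exact permutation test over 2 against 2 libraries cannot give a p under 0.333, and shares of one total are not independent of each other.

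**Figure D3:**
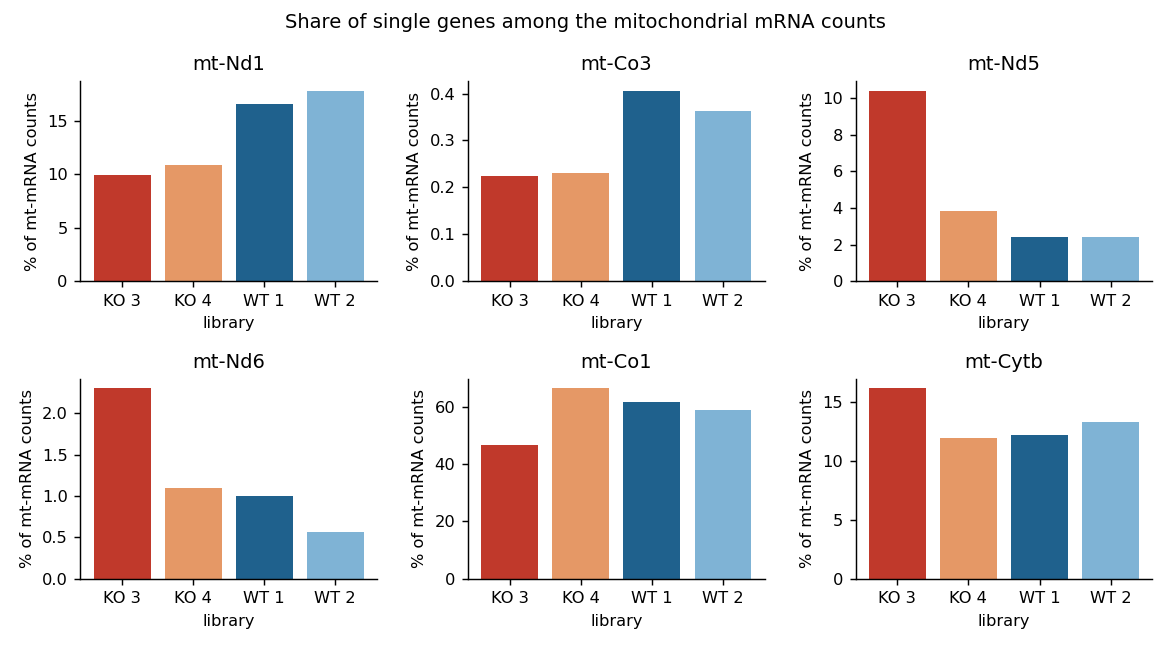
Percent of the counts of the 13 mitochondrial mRNAs taken by mt-Nd1, mt-Co3, mt-Nd5, mt-Nd6, mt-Co1 and mt-Cytb, with 1 bar for each library (KO 3 and KO 4, labelled Otub2 knockout; WT 1 and WT 2, wild type) and a separate axis from 0 in each panel. mt-Nd1 is lower in both libraries labelled Otub2 knockout (9.98% and 10.9%) than in wild type (16.6% and 17.9%), while mt-Co1 lies on both sides.

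mt-Nd6 differs from the other mRNAs in base composition, with 28.1% G in its sequence, against 5.88% to 16.1% in the 12 mRNAs of the plus strand. It overlaps mt-Nd5 by 14 bases on the opposite strand and lies within the span of the precursor that carries mt-Nd5 and mt-Cytb. The strand setting of the authors' counting is not given in the sources used here, and without strand the reads of mt-Nd6 cannot be told from antisense RNA of the plus-strand precursor.

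The 2 rRNAs, which form the RNA core of the mitochondrial ribosome, exceeded wild type by less than most mRNAs did in the library labelled Otub2 knockout 3. mt-Rnr1, the 12S rRNA of the small subunit, had 1269 CPM in the library labelled Otub2 knockout 3 and 90.8 CPM in number 4, against 241 and 262 CPM in wild type. mt-Rnr2, the 16S rRNA of the large subunit, had 8877 and 1843 CPM, against 2049 and 1978. The rRNA counts were 0.169 and 0.511 times the mRNA counts, against 0.494 and 0.316 times, so that the library labelled Otub2 knockout 4 was just above wild type 1 and number 3 was below both (difference of mean log2 ratios -0.43, exact permutation test, two-sided, p = 1). The ratio of mt-Rnr1 to mt-Rnr2 counts was 0.143 and 0.0493, against 0.118 and 0.132, and the library labelled Otub2 knockout 4 was the one apart. Whether polyadenylated RNA was selected or rRNA removed is not given in the sources used here, and either would set these ratios.

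The 22 tRNAs, which decode the mitochondrial mRNAs, gave 1915 and 68 counts in the libraries labelled Otub2 knockout 3 and 4, against 105 and 102 in wild type. Of them 5 (mt-Tf, mt-Ts1, mt-Td, mt-Tk and mt-Tt) were at 0 in all 4 libraries and 11, these included, had under 10 counts in every library. Of those at 0, mt-Ts1, mt-Td and mt-Tk lie within the span of the chromosome 1 copy described further on. The 4 tested were mt-Tc, mt-Tp, mt-Tl1 and mt-Tn, the tRNAs for cysteine, proline, leucine (1 of 2) and asparagine. mt-Tc had 375 and 3 counts, against 16 and 7, mt-Tp had 286 and 25, against 39 and 45, mt-Tl1 had 331 and 1, against 4 and 14, and mt-Tn had 213 and 9, against 11 and 18. In each the library labelled Otub2 knockout 3 was highest and number 4 lowest. mt-Te, the tRNA for glutamate next to mt-Nd6, had 213 and 0 counts, against 3 and 0, and mt-Ty, for tyrosine, had 186 and 0, against 2 and 2. Not all untested tRNAs followed: mt-Ta had 1 and 5 counts, against 4 and 3, and mt-Ts2 had 5 and 4, against 5 and 3. The tRNA genes are short, and 5 of them are shown in full (GRCm38; mt-Tc chrM:5192-5257, minus; mt-Tp chrM:15356-15422, minus; mt-Tl1 chrM:2676-2750, plus; mt-Tn chrM:5089-5159, minus; mt-Te chrM:14071-14139, minus), with the anticodon in capitals.
mt-Tc: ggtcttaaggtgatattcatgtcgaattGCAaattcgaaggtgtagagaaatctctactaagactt
mt-Tp: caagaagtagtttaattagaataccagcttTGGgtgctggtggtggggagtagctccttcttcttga
mt-Tl1: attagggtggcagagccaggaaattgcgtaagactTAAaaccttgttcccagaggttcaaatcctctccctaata
mt-Tn: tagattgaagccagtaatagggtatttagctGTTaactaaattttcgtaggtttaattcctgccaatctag
mt-Te: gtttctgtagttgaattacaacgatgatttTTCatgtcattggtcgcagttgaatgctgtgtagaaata

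Of these 5, 4 are read from the minus strand, as are 8 of the 22 tRNAs. The minus-strand tRNAs gave 69.97% and 61.8% of tRNA counts in the libraries labelled Otub2 knockout 3 and 4 (95% Wilson intervals 67.9% to 72.0% and 49.9% to 72.4%), against 74.3% and 73.5% in wild type (65.2% to 81.7% and 64.2% to 81.1%). The intervals, which cover counting error only, overlap. mt-Tp, the most counted tRNA in the library labelled Otub2 knockout 4 and in both wild-type libraries, held 14.9% and 36.8% of tRNA counts, against 37.1% and 44.1%, with 95% exact binomial intervals of 13.4% to 16.6% and 25.4% to 49.3%, against 27.9% to 47.1% and 34.3% to 54.3%. Only the library labelled Otub2 knockout 3 was below the others beyond counting error. A count of 0 among 68 tRNA counts allows a share of up to 4.41% by the limit of 3 counts, and of up to 5.28% by the exact binomial interval, so at this depth a difference of mt-Te between number 4 and wild type was not detectable.

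Part of the mitochondrial genome has a near-identical copy on chromosome 1 of the mouse, a stretch of 7 annotated pseudogenes (chr1:24611535-24616197, minus strand, GRCm38) that matches chrM from base 6390 to base 11042. Of 4140 aligned bases 2 differ, and the annotated copies hold the whole of mt-Co2, mt-Atp6, mt-Co3, mt-Nd3 and mt-Nd4l but for their last bases, with 31.3% of mt-Co1 and 63.6% of mt-Nd4. Reads of these 5 genes can thus be assigned to the mitochondrial gene or to the copy, and the handling of reads that fit several places is not given in the sources used here. By its coordinates the stretch also spans mt-Atp8, mt-Ts1, mt-Td, mt-Tk, mt-Tg and mt-Tr, for which no copy is annotated. Their bases were not compared, and whether the stretch bears on their low counts was not tested. The substitution T3C (mt-Nd3 base first, copy base last, counted from the first base of the gene) is the only difference in the aligned bases of mt-Nd3 and Gm28438, shown in capitals in their first 40 bases (chrM:9459-9498, plus; chr1:24613080-24613119, minus).
mt-Nd3: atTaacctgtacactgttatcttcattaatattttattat
Gm28438: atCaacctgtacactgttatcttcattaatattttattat

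At the other end of the stretch, the copy Gm29216 (chr1:24616158-24616197, minus) departs from mt-Co1 (chrM:6381-6420, plus) outside the aligned part, which is in capitals and holds the substitution A1066T, counted from the first base of mt-Co1.
mt-Co1: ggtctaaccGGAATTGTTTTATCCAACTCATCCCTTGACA
Gm29216: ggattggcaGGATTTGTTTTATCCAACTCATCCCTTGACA

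The libraries differed in how the counts of gene and copy were split. For mt-Co3 and its copy Gm28437, 58.4% and 59.9% of their summed counts were given to mt-Co3 in the libraries labelled Otub2 knockout 3 and 4, against 15.6% and 15.2% in wild type. For mt-Atp6 and Gm10925 the share was 48.3% and 43.9%, against 14.3% and 14.9%, and for mt-Co2 and Gm28661 it was 59.0% and 47.8%, against 21.3% and 16.9%. mt-Nd4l and Gm10222 gave 57.1% and 60.0%, the second from 10 counts in all, against 32.4% and 22.2%. mt-Nd3 and Gm28438 were the exception at 15.4% and 84.0%, against 21.5% and 24.2%. Over the 5 pairs summed, 54.3% and 50.5% of the counts went to the mitochondrial genes, against 18.0% and 16.1%. These pairs were chosen after their values were seen, and the groups did not overlap (exact permutation test, two-sided, p = 0.333, the smallest that 2 against 2 libraries can give).

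**Figure D4:**
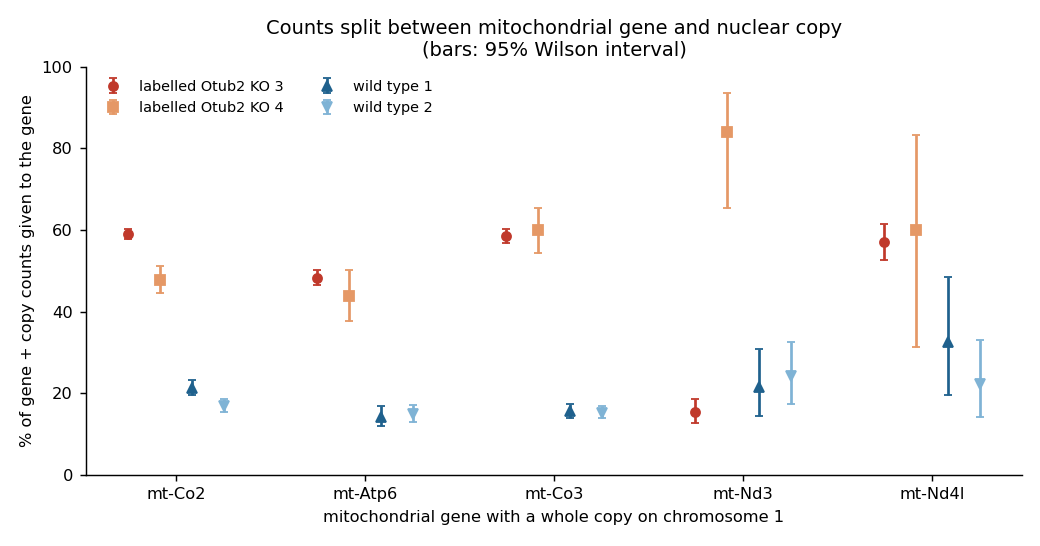
Percent of the summed counts of a mitochondrial gene and its chromosome 1 copy that were given to the mitochondrial gene, for the 5 genes copied whole, with 1 point for each library and 95% Wilson intervals as bars. Both libraries labelled Otub2 knockout lie above both wild-type libraries for mt-Co2, mt-Atp6, mt-Co3 and mt-Nd4l, while for mt-Nd3 they lie on opposite sides.

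The split bears on the shares of the copied genes given above. The chromosome 1 copies together made up 0.871% and 1.03% of mitochondrial mRNA plus copy counts in the libraries labelled Otub2 knockout 3 and 4, against 6.96% and 6.42% in wild type. With the copies added to the genes, mt-Co3 made up 0.381% and 0.382% of the counts, against 2.42% and 2.22%, and the 5 genes with their copies 1.46% and 1.78%, against 6.29% and 5.81%. The gap in the mt-Co3 share was thus wider with the copies added. No annotated copy matched an rRNA or tRNA at the limits used, and the 8 copies on other chromosomes had at most 367, 74, 24 and 19 counts in the libraries labelled Otub2 knockout 3 and 4 and wild type 1 and 2.

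As a share of gene counts, the nuclear genes of the respiratory chain differed less between the libraries than the mitochondrial mRNAs. The 75 tested nuclear subunits held 1.10% and 0.901% of gene counts in the libraries labelled Otub2 knockout 3 and 4, against 0.920% and 0.868% in wild type. The mitochondrial mRNAs amounted to 3.43 and 0.459 times these counts, against 0.590 and 0.967 times, a ratio chosen after values were seen. Of the 75, 0 were called by the edgeR test over 4 libraries and 1 was called higher by DESeq2 (3.43% of all genes). At an unadjusted p under 0.05 by edgeR, 9 were higher and 0 lower, against 9.42% and 15.2% of all genes. Both libraries labelled Otub2 knockout lay above both wild-type libraries for 27 of the 75 and below both for 2. Over all genes tested these shares were 26.9% and 33.1%, and over the 9914 with a mean of at least 10 CPM they were 44.5% and 11.3%. The median log2 fold change of the 75 was 0.69, against 0.09 over all genes and 0.40 over those with at least 10 CPM. Split by library, the median log2 ratio to wild type was 1.14 in the library labelled Otub2 knockout 3 and 0.03 in number 4. On this TMM scale 70 of the 75 lay above both wild-type libraries in number 3, where 59 were called higher in the fit of that library alone (22.4% of all genes), and 28 lay above both and 29 below both in number 4, where 7 were called higher and 4 lower (18.8% and 22% of all genes).

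The nuclear members with the smallest p in each complex, none of them past the threshold, were higher in both libraries. With 2 libraries a group a small p favours genes on which both agree, so this follows largely from the choice. Of all 75 subunits, 27 had both above. Ndufa12, a subunit of complex I, had 22.7 CPM in the library labelled Otub2 knockout 3 and 25.0 CPM in number 4, against 8.82 and 9.67 CPM in wild type (log2 fold change 1.37, SE 0.33, adjusted p = 0.166). Sdhd, an anchor subunit of complex II, had 228 and 105 CPM, against 63.2 and 62.8 (1.40, SE 0.42, adjusted p = 0.170). Uqcrc1, a core protein of complex III, had 422 and 357 CPM, against 223 and 203 (0.87, SE 0.28, adjusted p = 0.173). Cox5a of complex IV had 193 and 89.4 CPM, against 67.2 and 70.1 (1.04, SE 0.42, adjusted p = 0.207), and Atp5g1, a copy of the c subunit of complex V, had 220 and 91.2 CPM, against 57.3 and 51.6 (1.51, SE 0.47, adjusted p = 0.171). The subunits used in heart and skeletal muscle were high only in number 3: Cox6a2 had 4139 and 15 counts, against 7 and 5, and Cox7a1 had 1649 and 21, against 30 and 39. That library also held the cardiomyocyte markers given above, and their part in these values was not tested.

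For replication and maintenance of mtDNA, 14 of 15 tested genes had both libraries above both wild-type libraries (26.9% of all genes and 44.5% of those with at least 10 CPM). Over the 4 libraries 0 of the 15 were called by edgeR (unadjusted p under 0.05 for 6 higher and 0 lower) and 1 by DESeq2, and in number 4 alone 10 were called higher (18.8% of all genes). The median log2 ratio to wild type was 0.65 in number 3 and 0.91 in number 4. Primpol, a primase and polymerase, had 7.61 and 7.84 CPM, against 2.45 and 2.78 (log2 fold change 1.56, SE 0.44, adjusted p = 0.166), and Lig3, the ligase that seals mtDNA, had 49.4 and 70.8 CPM, against 21.7 and 31.5 (1.18, SE 0.34, adjusted p = 0.167). Among the 9 transcription genes, 3 had both above, which lies between the 26.9% of all genes tested and the 44.5% of those with at least 10 CPM. Polrmt, the mitochondrial RNA polymerase, had 46.3 and 34.9 CPM, against 15.5 and 22.3 (1.10, SE 0.34, adjusted p = 0.172), and Tfam, which packages mtDNA and starts its transcription, had 45.04 and 38.2 CPM, against 24.5 and 30.1 (0.61, SE 0.28, adjusted p = 0.242). The library labelled Otub2 knockout 4 thus had a higher CPM of Polrmt and Tfam than wild type and a lower share of mitochondrial mRNA counts. Neither Polrmt nor Tfam was called over the 4 libraries, and they do not stand for the list. Of the 9 transcription genes, 4 lay above both wild-type libraries and 2 below both in number 4, against 41.8% and 47.1% of all genes tested. Their median log2 ratio to wild type there was 0.12.

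For processing and stability of mitochondrial RNA, 10 of 18 genes had both libraries above and 1 both below. Fastk had 156 CPM in the library labelled Otub2 knockout 3 and 71.3 CPM in number 4, against 45.3 and 40.6 CPM in wild type (log2 fold change 1.40, SE 0.43, adjusted p = 0.171), and Mtpap, the mitochondrial poly(A) polymerase, had 25.3 and 23.5 CPM, against 11.5 and 13.8 (0.95, SE 0.32, adjusted p = 0.182). Both above were also 8 of 13 genes of rRNA modification and ribosome assembly, 5 of 13 of tRNA modification, 10 of 17 aminoacyl-tRNA synthetases, 9 of 11 translation factors, 5 of 10 regulators of biogenesis, 12 of 17 other mitochondrial proteins and 6 of 8 genes of mitophagy. Over all genes tested this share was 26.9%, and over those with at least 10 CPM 44.5%, so that several of these lists were near it. Ppargc1a, a coactivator that drives mitochondrial biogenesis, had 926 and 23 counts, against 41 and 27, and was high in number 3 alone (log2 fold change 3.76, SE 1.70, adjusted p = 0.233). Sqstm1, a cargo receptor of autophagy, had 227 and 222 CPM, against 111 and 97.4 (1.11, SE 0.25, adjusted p = 0.166), and Bnip3, a mitophagy receptor of the outer membrane, had 65.2 and 97.6 CPM, against 24.9 and 36.7 (1.40, SE 0.35, adjusted p = 0.166). In none of these lists was a gene called by edgeR over the 4 libraries. At an unadjusted p under 0.05, 0 to 4 genes a list were higher and 0 lower, against 9.42% and 15.2% of all genes tested. DESeq2 called 1 of the 17 other mitochondrial proteins and 2 of the 8 genes of mitophagy higher, against 3.43% of all genes tested.

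**Figure D5:**
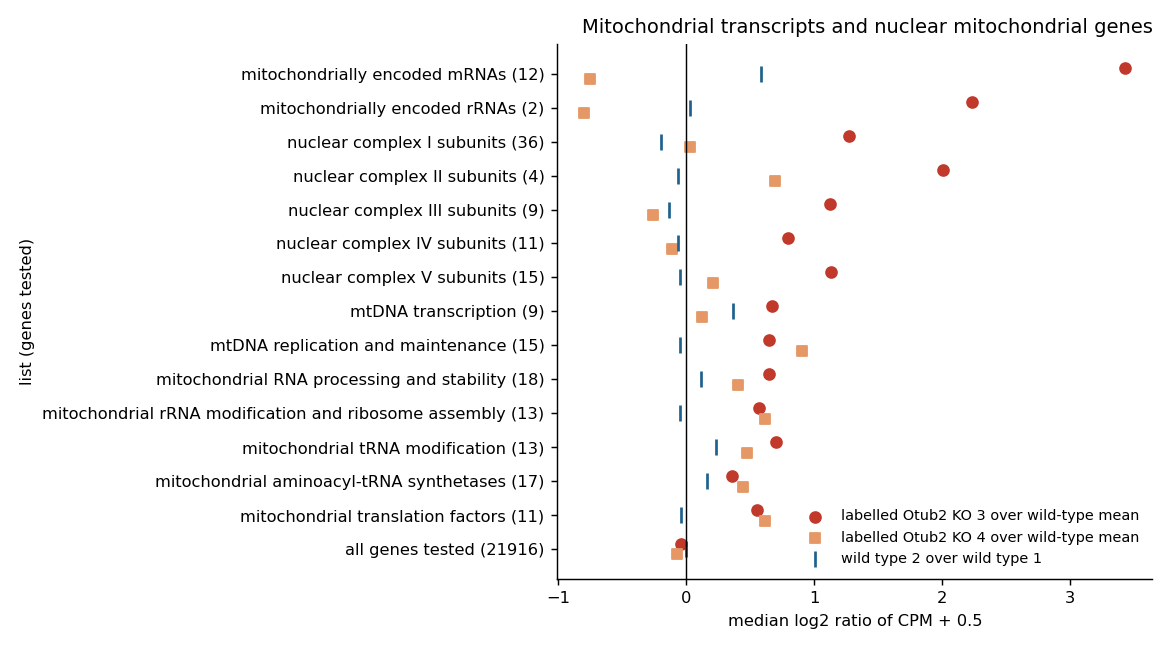
Median log2 ratio of CPM plus 0.5 over the tested genes of each list, for the libraries labelled Otub2 knockout 3 (circles) and 4 (squares) over the mean of wild type, and for wild type 2 over wild type 1 (bars), with the number of genes tested in brackets. The mitochondrial mRNAs and rRNAs lie far to the right in number 3 and left of 0 in number 4, while the medians of the lists from mtDNA replication to translation factors lie right of 0 in both. So do those of the 9914 genes with a mean of at least 10 CPM, which are not plotted, at 0.25 in number 3 and 0.36 in number 4. The aminoacyl-tRNA synthetases, at 0.36 and 0.44, lie near them.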

How the data were processed

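RNA-seq of 4 libraries was used, 2 labelled Otub2 knockout and 2 wild type. The deposited table gives a whole-number read count per gene and library and an FPKM value, per the file headers; the authors' FPKM divides by the gene length of the annotation. HISAT2, DESeq and the human build GRCh38 appear, unversioned, in the submitters' processing notes, while the gene IDs are mouse. The sources used here give no counting tool, strand setting or handling of multiply mapped reads. Columns of the libraries labelled Otub2 knockout, headed OE, were assigned by their numbers. The number of per-sample columns left unused was 0. The 14785 features without an Ensembl ID (1.29% and 0.914% of counts in the libraries labelled Otub2 knockout, 2.84% and 2.82% in wild type) were left out.

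Counts were tested with edgeR 4.0.16 in R 4.3.3 (TMM factors, filterByExpr, quasi-likelihood F-test, Benjamini-Hochberg at 0.05 over 21916 genes). The steps were also run on simulated counts in which both libraries labelled Otub2 knockout changed alike. The real pair did not, so that run does not show how the test performs on these data. Standard errors are the log2 fold change over the root of F. DESeq2 1.42.0 and limma 3.58.1 (voom) were alternatives. Shares were compared with an exact permutation test over samples. Coordinates and sequences come from GENCODE mouse release M21 (GRCm38), in which 54409 of the 54446 IDs were found. Nuclear copies were found by aligning the transcript sequences with blastn 2.17.0 (at least 90% identity over 80% of the copy), in place of the planned genome alignment. A copy not among the counts is not analysed here. The rule named all mitochondrial genes, Otub2, the fixed cell type markers, up to 5 nuclear copies by count and up to 4 genes with the smallest p in each nuclear list. The copies Gm10222 and Gm28438 fall outside it and were named after their values were seen. Of 216 list symbols 212 matched. The members and lists were chosen with earlier results of these data known. The background of genes with at least 10 CPM, copy pairs, genome stretch mRNA to nuclear ratio and the direction of single libraries under other scalings were added after values were seen.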

Additional observations from a re-analysis of the deposited data

How the results depend on the processing

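No paired analysis was possible because the groups share no replicate number. The direction of the mitochondrial genes depended on which library labelled Otub2 knockout was kept. Without number 3, 13 of the 14 tested mRNAs and rRNAs were lower and not higher, all but mt-Nd5. Leaving out each library in turn, their log2 fold changes ranged as follows, with the lowest value without number 3 and the highest without number 4: mt-Rnr1 from -1.44 to 2.33, mt-Rnr2 from -0.10 to 2.14, mt-Nd1 from -1.28 to 2.55, mt-Nd2 from -0.90 to 4.89, mt-Co1 from -0.46 to 2.99, mt-Co2 from -0.53 to 2.96, mt-Atp6 from -0.97 to 3.25, mt-Co3 from -1.32 to 2.59, mt-Nd3 from -0.76 to 1.83, mt-Nd4l from -1.74 to 4.27, mt-Nd4 from -0.74 to 4.44, mt-Nd6 from -0.036 to 4.99 and mt-Cytb from -0.72 to 3.68. Leaving out number 3 and also all nuclear genes over 1% of any library, an alternative chosen after seeing the data, gave -1.44 for mt-Rnr1, -0.10 for mt-Rnr2, -1.28 for mt-Nd1, -0.90 for mt-Nd2, -0.46 for mt-Co1, -0.53 for mt-Co2, -0.97 for mt-Atp6, -1.32 for mt-Co3, -0.76 for mt-Nd3, -1.74 for mt-Nd4l, -0.74 for mt-Nd4, -0.035 for mt-Nd6 and -0.72 for mt-Cytb, with 8 mitochondrial genes called lower and 0 higher. Leaving out 1 library at a time, 0 to 25 mitochondrial genes were called higher and 0 to 9 lower, over all genes 0 to 5243 higher and 0 to 5097 lower, and in the nuclear lists 0 to 121 higher and 0 to 8 lower. The 25 called without number 4 include tRNAs that passed the count filter through number 3 alone. DESeq2 called 1 mitochondrial gene higher, 7 list genes higher, and 751 genes higher and 262 lower in all. Library size alone gave 37 higher and 1433 lower over all genes, no filter 6 higher and 3 lower, and neither called a mitochondrial gene. Upper-quartile scaling and library size alone moved the median log2 fold change of all genes to -0.38 and -0.35, against 0.09 with TMM, and the tested mRNA and rRNA genes stayed above 0 at 0.56 to 4.02 and 0.32 to 3.66. The library labelled Otub2 knockout 4 lay below both wild-type libraries for 16 to 18 of the 18 tested genes, and number 3 above both for all 18, under TMM, library size, upper-quartile and median-of-ratios scaling. Among the mRNA shares, 2 to 6 genes were above and 4 to 7 below wild type, leaving out 1 library at a time, and among the tRNA shares 3 to 9 and 1 to 4, against 1 and 1 with all 4 libraries. The cause was not tested, though groups of fewer libraries overlap less by construction. The tRNAs are limited by depth, with 68 to 105 counts in 3 of the 4 libraries.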
